A study of Homo sapiens with 4 samples.

Results

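The genes described here are the metalloproteinases and their tissue inhibitors in MV3 spheroids, chosen by name from the count table as all matrix metalloproteinases (MMPs), ADAMs, ADAMTSs and the tissue inhibitors of metalloproteinases (TIMPs). The rule matched 69 of 56304 genes, namely 18 secreted MMPs, 6 membrane-type MMPs, 22 ADAMs, 19 ADAMTSs and 4 TIMPs. Every MMP outside the 6 membrane-type MMPs was counted as secreted. MMP23A, ADAM5 and ADAM6 are annotated as pseudogenes. MV3 is an established human melanoma line described as highly metastatic, here stably expressing a GFP-tagged histone (H2B-GFP). Spheroids of 50000 cells were embedded in rat tail collagen I and dissected on day 2, and the labels name no treatment. A 1 mm punch removed the core, and a 3 mm punch then removed the invasion zone, the surrounding collagen with the cells that had left the spheroid. Bulk RNAseq gave 2 core and 2 invasion zone libraries, numbered 1 and 2 in each zone. All cells come from a single line, the number of spheroids behind a library is not given in the sources used here, and because the punch cuts vertically, cells that invaded above or below the spheroid can be in the core sample.

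Metalloproteinases are zinc-dependent enzymes that cut proteins outside the cell. Most secreted MMPs are released as inactive precursors, and together the secreted MMPs degrade collagens, gelatin and other matrix proteins. Membrane-type MMPs stay on the cell surface and are known to open paths through fibrillar collagen. ADAMs are membrane proteins, several of which release the outer part of growth factors, receptors and adhesion molecules from the cell surface, and ADAMTSs are secreted relatives that act on proteoglycans, procollagens and clotting proteins. TIMPs are small secreted proteins that block the active site of these enzymes. In melanoma, MMP2 and its surface activator MMP14 are among the enzymes most often linked to invasion.

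The libraries held between 11789243 and 37591782 counts, with fewer counts for replicate 2 in each zone. The 10 most abundant genes took 4.25% to 5.58% of the counts, and mitochondrially encoded genes 1.06% to 1.72%. Of 10 melanocyte lineage and melanoma markers, 8 stayed under 1 CPM (counts scaled to the library total) in every library, and SOX10 and TYR had no count at all. The summed level of the 10 markers was 3.94 to 4.07 CPM in the core and 3.03 to 6.19 CPM in the invasion zone, so the labelled cell type could not be read from its lineage markers. The 2 leukocyte markers summed to at most 0.221 CPM. Among the 2 endothelial markers, PECAM1 had 17.8 and 7.48 CPM in the core against 5.21 and 0.933 CPM in the invasion zone, while CDH5 stayed at 0.2 CPM or below. The 3 epithelial markers summed to 13.9 to 15.4 CPM in the core and 7.97 to 9.36 CPM in the invasion zone, nearly all of it KRT8, with EPCAM at 0.067 CPM or below. The part of PECAM1- or KRT8-expressing cells in the zone differences was not tested.

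To see which of these enzymes MV3 spheroids expressed, counts were scaled to normalized CPM. They were then divided by the length of the exons in kilobases (kb), to set levels of different genes side by side. This length joins all annotated exons of a gene and can exceed its longest transcript, as for ADAM9 (17704 against 7079 bases). The order of the genes can therefore depend on the length chosen. Of the 69 genes, 33 reached the count needed for a test (at least 10 counts at the median library size in 2 or more libraries and 15 in total) and 36 did not. The tested genes were 6 secreted MMPs, all 6 membrane-type MMPs, 12 ADAMs, 6 ADAMTSs and 3 TIMPs. Averaged over the 4 libraries, TIMP1, a broad inhibitor of secreted MMPs, had the highest level with 185 CPM per kb, followed by MMP2 (gelatinase A) with 140.0 CPM per kb, and the ranges of both over the libraries overlapped. ADAM15, ADAMTS1, MMP17, MMP14, ADAM9 and TIMP2 followed between 30.5 and 18.7 CPM per kb, and their libraries overlapped from each gene to the next. The collagenase MMP1 averaged 0.657 CPM per kb and the gelatinase MMP9 0.635 CPM per kb. MMP2 alone made up 81.0% and 73.0% of the summed MMP level per kb in core replicates 1 and 2, and 62.7% and 45.8% in invasion zone replicates 1 and 2.

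**Figure D1:**
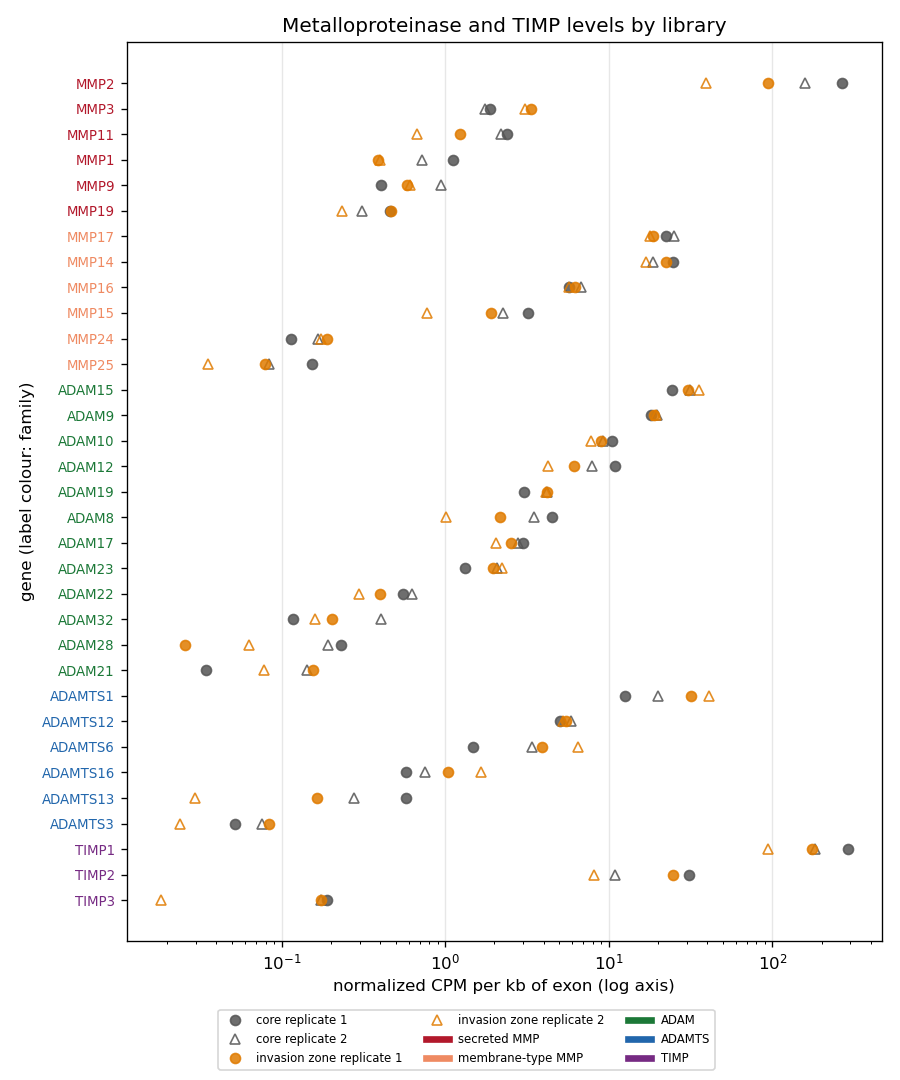
Levels of the 33 tested genes in each library, as normalized CPM per kb of exon on a log axis, with grey points for the core and orange points for the invasion zone, filled circles for replicate 1 and open triangles for replicate 2. MMP2 and TIMP1 have the highest averages, 140.0 and 185 CPM per kb, and the 4 libraries of MMP2 lie apart, those of the core above those of the invasion zone.

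The 36 genes that were not tested had between 0 and 43 counts over all 4 libraries. Of these, 17 had no count in any library, which allows up to 3 counts or 0.0298 CPM over the 4 libraries together. The 17 include MMP7 and MMP28, the matrix-degrading ADAMTS5 and TIMP4. A further 14 genes had between 1 and 9 counts. The remaining 5 were ADAM11 (43 counts), ADAMTS17 (26), ADAMTS4 (17), ADAMTS14 (11) and MMP12 (11). ADAMTS4, an aggrecanase, had 15 counts in the core and 2 in the invasion zone, which is 7.28 times the share of counts in the core (exact 95% interval 1.69 to 65.6). ADAM11, a family member without protease activity, had 30 and 13 counts, or 2.24 times the share (exact 95% interval 1.13 to 4.68). MMP12, the macrophage elastase, had 0 counts in the core and 11 in the invasion zone, with an exact 95% interval of the ratio that starts at 2.59-fold (3.78-fold if the core is set at a floor of 3 counts), and 10 of its 11 counts came from replicate 1. These intervals cover counting error only.

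The zones were then compared to find which members differed in invading cells. Calling a gene required at least a 2-fold difference and a Benjamini-Hochberg adjusted p, over the 15529 genes that passed the count filter, below 0.05. In edgeR's quasi-likelihood test without a replicate term, 0 of the 33 members were called (percent called among all genes tested 0 in either direction), and 0 of all genes. When p was left unadjusted at the same limits, 2 members were higher and 6 lower in the invasion zone (background 2.92% higher and 5.85% lower). Limma voom called 0 members (0% of all genes). DESeq2 without the block called 1 higher and 4 lower (background 2.28% and 3.53%). These were ADAMTS1 higher and MMP2, MMP11, ADAM8 and ADAM28 lower. When edgeR was run with a block for the replicate number, 2 members were higher (ADAMTS1 and ADAMTS6) and 7 were lower (MMP2, MMP11, MMP1, MMP15, ADAM8, ADAM28 and ADAMTS13), against a background of 3.41% and 7.06% of all genes. Without the 2-fold minimum, the block test passed 5 higher and 14 lower members, against a background of 19.4% in each direction. The count without the block depended on single libraries. It was 0 of the members without core replicate 1 (background 0.926%), 6 without core replicate 2 (7.46%), 10 without invasion zone replicate 1 (11.4%) and 2 without invasion zone replicate 2 (3.2%), so the count over all genes shifted with the library left out as well. Replicates are separate libraries whose origin the labels do not describe, so the p-values without the block measure the spread between these libraries, which may be technical. The block takes the difference between the replicate numbers out of that spread. In 4 libraries this leaves little spread of each gene's own. The p-values and standard errors with the block therefore rest largely on variance shared across genes.

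The invasion zone was lower in both libraries than either core library for 14 of the 33 members and higher for 5 (background 30.3% lower, 28.1% higher and 58.4% in either direction). The direction was the same in both replicates for 24 members. The 9 exceptions were ADAM9, ADAM19, ADAM21, ADAM32, ADAMTS3, ADAMTS12, MMP9, MMP16 and MMP19. The log2 fold change (invasion zone over core throughout) had a median of -0.23 over the 33 members and -0.01 over all genes tested. By family it was -0.68 for the secreted MMPs, -0.26 for the membrane-type MMPs, -0.28 for the ADAMs, 0.49 for the ADAMTSs and -0.70 for the TIMPs. With few genes in a family these medians moved when single libraries were left out. For the TIMPs the median went from -1.37 without invasion zone replicate 1 to -0.06 without invasion zone replicate 2. For the ADAMTSs it was up to 1.32 without invasion zone replicate 1. ADAMTS3 did not pass the count filter there, so the genes behind that median changed as well. In bulk RNA, fewer cells that express a gene and less of its RNA per cell cannot be told apart.

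**Figure D2:**
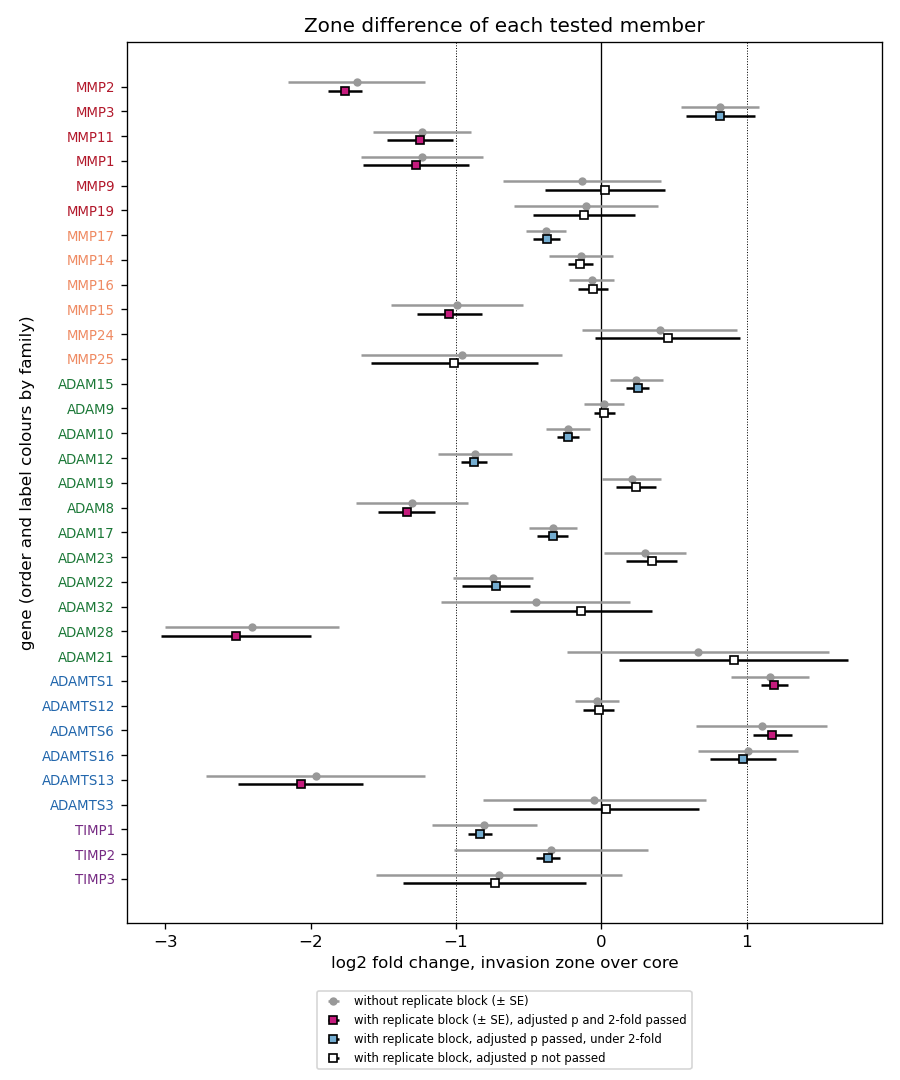
Log2 fold change, invasion zone over core, for the 33 tested genes, with standard errors, as grey circles without the replicate block and as squares with it. Pink squares mark the 9 genes past the adjusted p and the 2-fold change with the block, blue squares the 10 past the adjusted p alone and white squares the 14 that did not pass, and dotted lines mark a 2-fold change.

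Among the secreted MMPs, 3 of the 6 tested genes were called lower with the block and none higher (background 7.06% lower and 3.41% higher). The most abundant of these secreted MMPs carried the largest difference in level. MMP2 (ENSG00000087245, chromosome 16 of GRCh38, 55389700 to 55506691) encodes gelatinase A, which degrades denatured collagen and basement membrane collagen. It had 1260.1 and 750.1 normalized CPM in core replicates 1 and 2, and 441 and 185 in invasion zone replicates 1 and 2. The zones did not overlap, and replicate 2 was the lower replicate in each. The mean was 1005 ± 361 CPM (SD, n = 2) in the core against 313 ± 181 CPM in the invasion zone, with a log2 fold change of -1.68 (standard error 0.47). It did not pass without the block (edgeR adjusted p = 0.146) and passed with it (log2 fold change -1.76, standard error 0.11, edgeR adjusted p = 5.17e-05). DESeq2 passed it without the block (adjusted p = 0.00143). Within replicates 1 and 2 the log2 difference was -1.51 and -2.02. Leaving out 1 library moved the log2 fold change between -2.45 (without invasion zone replicate 1) and -1.19 (without invasion zone replicate 2). MMP2 took 39.2% and 29.7% of all counts on the 69 genes in the core against 19.2% and 9.94% in the invasion zone.

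MMP11, stromelysin 3, which is activated by furin inside the cell, had 12.3 and 11.3 normalized CPM in the core and 6.38 and 3.45 in the invasion zone. The core libraries lay close together, both above the invasion zone libraries. The log2 fold change was -1.23 (standard error 0.34, edgeR adjusted p = 0.142 without and 0.00275 with the block, DESeq2 adjusted p = 0.0232 without). MMP1, the interstitial collagenase that cuts intact collagen I, was low, with 109 and 30 counts in the core and 40 and 13 in the invasion zone. Its 3.05 and 1.99 CPM in the core stood against 1.07 and 1.09 CPM in the invasion zone. Its log2 fold change was -1.23 (standard error 0.42, edgeR adjusted p = 0.169 without and 0.0232 with the block). DESeq2 did not call MMP1, with or without the block (adjusted p = 0.182 and 0.198).

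MMP3, stromelysin 1, which degrades proteoglycans and activates other MMPs, went the other way. It had 3.49 and 3.25 normalized CPM in the core and 6.16 and 5.72 in the invasion zone. Replicates of a zone lay closer to each other than the zones did, and the log2 difference was 0.82 within each replicate. It passed the adjusted p with the block but not the 2-fold change (edgeR log2 fold change 0.82, adjusted p = 0.0243 with and 0.162 without the block), and it did not pass in DESeq2 with the block (adjusted p = 0.129). MMP1 and MMP3 are neighbours in a cluster of 9 MMP genes on chromosome 11 (102520508 to 102955732), and the other 7 members of it were not tested, 3 of them without a count. Per kb, the ratio of MMP3 to MMP1 was 1.69 and 2.41 in the core and 8.53 and 7.72 in the invasion zone. With MMP3 higher and MMP1 lower in both invasion zone libraries, this ratio could not overlap between the zones. MMP1 shares 223 and MMP3 32 of their exonic bases with the opposite-strand gene WTAPP1.

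The gelatinase MMP9 and MMP19 showed no shared direction. MMP9 had 0.950 and 2.19 normalized CPM in the core and 1.36 and 1.43 in the invasion zone, so that the invasion zone libraries lay between the core libraries. MMP19 had 2.15 and 1.46 CPM in the core against 2.19 and 1.09 CPM in the invasion zone, with the same replicate higher in each zone. Their log2 fold changes were -0.13 (standard error 0.54) and -0.11 (standard error 0.49). MMP9 shares 430 of 2336 exonic bases with an opposite-strand gene, and MMP19 shares 821 of 4672, and without a stated strand setting the reads of such partners cannot be told apart.

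Of the 6 membrane-type MMPs, 1 was called lower with the block and none higher (background 7.06% lower and 3.41% higher). MMP14 (ENSG00000157227, chromosome 14, 22836560 to 22849041), the main collagenase of the cell surface and an activator of the MMP2 precursor, had 115 and 86.2 normalized CPM in the core and 104 and 77.8 in the invasion zone. The zones overlapped, and the replicates differed more than the zones. Its log2 fold change was -0.14 (standard error 0.22) without and -0.14 (standard error 0.08) with the block, and it did not pass (edgeR adjusted p = 0.734 and 0.208). MMP17, a membrane-type MMP held by a lipid anchor, had 90.1 and 99.9 CPM in the core against 74.5 and 71.4 CPM in the invasion zone. It was lower in both invasion zone libraries, and with the block it passed the adjusted p without reaching 2-fold (edgeR log2 fold change -0.38, adjusted p = 0.0119, against 0.184 without the block). MMP16 had 69.6 and 82.1 CPM in the core against 75.0 and 69.7 CPM in the invasion zone, and the zones overlapped (log2 fold change -0.07, standard error 0.15).

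MMP15 was the only membrane-type MMP called with the block, close to the 2-fold limit. This relative of MMP14 had 13.6 and 9.55 normalized CPM in the core and 8.03 and 3.28 in the invasion zone. Both invasion zone libraries were the lower ones, with invasion zone replicate 2 well below the rest. The log2 fold change was -0.99 (standard error 0.45) without and -1.05 (standard error 0.22) with the block (edgeR adjusted p = 0.248 and 0.00629), and limma voom with the block put it at -0.92, under 2-fold. It was -1.83 without invasion zone replicate 1 and -0.53 without invasion zone replicate 2. MMP24 had 18 and 11 counts in the core and 31 and 9 in the invasion zone, or 0.503 and 0.730 normalized CPM against 0.827 and 0.757 CPM. MMP25 had 26 and 6 counts in the core and 14 and 2 in the invasion zone, or 0.727 and 0.398 CPM against 0.374 and 0.168 CPM. At these low counts neither passed with the block (edgeR log2 fold changes 0.46 and -1.01, adjusted p = 0.510 and 0.202). MMP24 shares 968 and MMP25 1454 exonic bases with opposite-strand genes. Per kb, the ratio of MMP14 to MMP2 was 0.0927 and 0.117 in the core and 0.240 and 0.429 in the invasion zone.

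Among the 12 tested ADAMs, ADAM8 and ADAM28 were called lower with the block and none higher (background 7.06% lower and 3.41% higher). ADAM9, ADAM10, ADAM15 and ADAM17 are proteases that release membrane proteins, ADAM17 being known for TNF and EGF-type ligands and ADAM10 for Notch and cadherins. ADAM10 had 167 and 147 normalized CPM in the core and 143 and 125 in the invasion zone. ADAM17 had 47.8 and 44.7 CPM in the core against 40.4 and 32.8 CPM in the invasion zone, and it shares 1863 of 15964 exonic bases with opposite-strand genes. For ADAM10 and ADAM17 alike, the zones did not overlap and the invasion zone was the lower. With the block both passed the adjusted p at less than 2-fold (edgeR log2 fold changes -0.23 and -0.34, adjusted p = 0.0392 and 0.0336), and neither passed without it (edgeR adjusted p = 0.397 and 0.284) or in DESeq2 with the block (adjusted p = 0.172 and 0.145). ADAM15 passed in the other direction with the block (edgeR log2 fold change 0.25, adjusted p = 0.0321, against 0.462 without) but not in DESeq2 with the block (adjusted p = 0.0832), and its libraries overlapped between the zones, from 160.3 to 207 CPM in the core against 201 to 234 CPM in the invasion zone. ADAM9 had 321 to 352 CPM in the core against 337 to 345 CPM in the invasion zone (log2 fold change 0.02, standard error 0.14).

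ADAM8, a protease best known from leukocytes, had 21.4 and 16.6 normalized CPM in the core and 10.3 and 4.80 in the invasion zone. The zones did not overlap, and the log2 fold change was -1.30 (standard error 0.39, edgeR adjusted p = 0.152 without and 0.000928 with the block, DESeq2 adjusted p = 0.0187 without). It was -1.99 without invasion zone replicate 1 and -0.89 without invasion zone replicate 2. ADAM28 had 77 and 27 counts in the core and 9 and 7 in the invasion zone, that is 2.15 and 1.79 CPM against 0.240 and 0.589 CPM. ADAM28 had a log2 fold change of -2.40 (standard error 0.60, edgeR adjusted p = 0.135 without and 0.00501 with the block, DESeq2 adjusted p = 0.0428 without). Its log2 fold change stood furthest from 0 of the 33 members in the edgeR fit without the block. Without invasion zone replicate 1 it was -1.74, against -3.84 for ADAMTS13 and -2.45 for MMP2, and in libraries thinned to the smallest total -1.99 against -2.39 for ADAMTS13. ADAM12, which is known to bind integrins and to cut insulin-like growth factor binding proteins, had 109 and 78.5 CPM in the core against 60.7 and 41.7 CPM in the invasion zone. It was lower by nearly the same amount within replicates 1 and 2 (log2 difference -0.84 and -0.91) and passed the adjusted p with the block under the 2-fold minimum (edgeR adjusted p = 0.000191, against 0.152 without). ADAM22, a neuronal receptor without protease activity, also passed with the block under 2-fold (edgeR log2 fold change -0.72, adjusted p = 0.0377, against 0.186 without) but not in DESeq2 with the block (adjusted p = 0.124), and its 7.57 and 8.62 CPM in the core lay above its 5.50 and 4.04 CPM in the invasion zone. The other 4 tested ADAMs, namely ADAM19, ADAM21, ADAM23 and ADAM32, did not pass with or without the block, with log2 fold changes from -0.45 to 0.67.

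**Figure D3:**
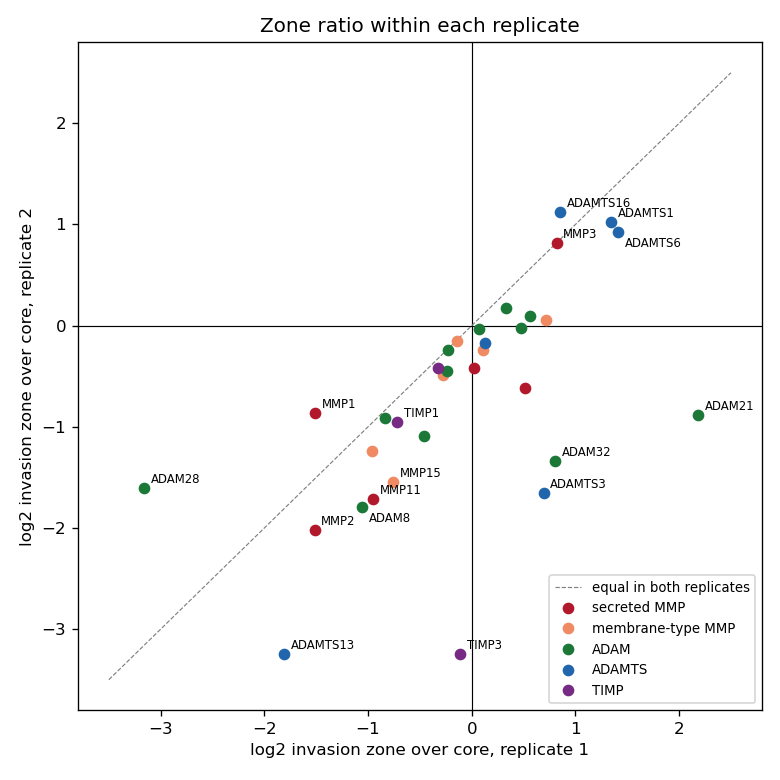
Log2 ratio of the invasion zone over the core within replicate 1 (x axis) against replicate 2 (y axis) for the 33 tested genes, coloured by family, with a dashed line where both replicates are equal. MMP2, MMP11, MMP15 and ADAM8 lie in the lower left, ADAMTS1, ADAMTS6, ADAMTS16 and MMP3 in the upper right, and the genes with few counts, ADAM21, ADAM28, ADAM32, ADAMTS3, ADAMTS13 and TIMP3, lie far from the line.

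Both members called higher with the block were ADAMTSs (background 3.41% of all genes higher). ADAMTS1 (ENSG00000154734, chromosome 21, 26835755 to 26845409), a secreted protease that cuts aggrecan and versican and binds VEGF, had 91.4 and 146 normalized CPM in the core and 232 and 298 in the invasion zone. The invasion zone was higher without overlap, and replicate 2 was the higher replicate in each zone. The mean was 119 ± 38.8 CPM (SD, n = 2) in the core against 265 ± 46.5 CPM in the invasion zone, with a log2 fold change of 1.16 (standard error 0.27). It did not pass without the block (edgeR adjusted p = 0.132) and passed with it (log2 fold change 1.19, edgeR adjusted p = 7.53e-05). DESeq2 passed it without the block (adjusted p = 0.00236). Leaving out 1 library moved its log2 fold change between 0.87 (without core replicate 1) and 1.545 (without core replicate 2). Without invasion zone replicate 2 it was 0.97, also under 2-fold. The adjacent gene ADAMTS5, which lies 72512 bases away from ADAMTS1, had no count in any library.

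ADAMTS6 had 12.6 and 29.0 normalized CPM in the core and 33.7 and 55.2 in the invasion zone. The gap between core replicate 2 and invasion zone replicate 1 was small, and within replicates 1 and 2 the log2 difference was 1.41 and 0.93. The log2 fold change was 1.10 (standard error 0.45, edgeR adjusted p = 0.213 without and 0.000296 with the block), and it was 1.82 without core replicate 2 and 0.62 without core replicate 1. ADAMTS16 had 3.38 and 4.44 CPM in the core against 6.11 and 9.68 CPM in the invasion zone, again without overlap. At a log2 fold change of 1.01 without and 0.98 with the block (edgeR adjusted p = 0.168 and 0.00864), it lay at the 2-fold limit and was not called, and it was 0.65 without invasion zone replicate 2.

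ADAMTS13, the protease that trims von Willebrand factor in blood, was the member of this family called lower. It had 117 and 24 counts in the core and 35 and 2 in the invasion zone, or 3.27 and 1.59 normalized CPM against 0.934 and 0.168 CPM. The log2 fold change was -1.97 (standard error 0.76, edgeR adjusted p = 0.197 without and 0.00539 with the block), and it moved between -3.84 without invasion zone replicate 1 and -1.36 without core replicate 1. ADAMTS12 was level, with 48.4 and 56.8 CPM in the core against 52.8 and 50.3 CPM in the invasion zone (log2 fold change -0.03, standard error 0.15). ADAMTS3, a procollagen N-proteinase, had between 2 and 22 counts in a library and a log2 fold change of -0.05 (standard error 0.77). Summed over the family, the level per kb was 20.3 and 30.6 CPM per kb in the core and 42.6 and 54.4 CPM per kb in the invasion zone, most of it from ADAMTS1.

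**Figure D4:**
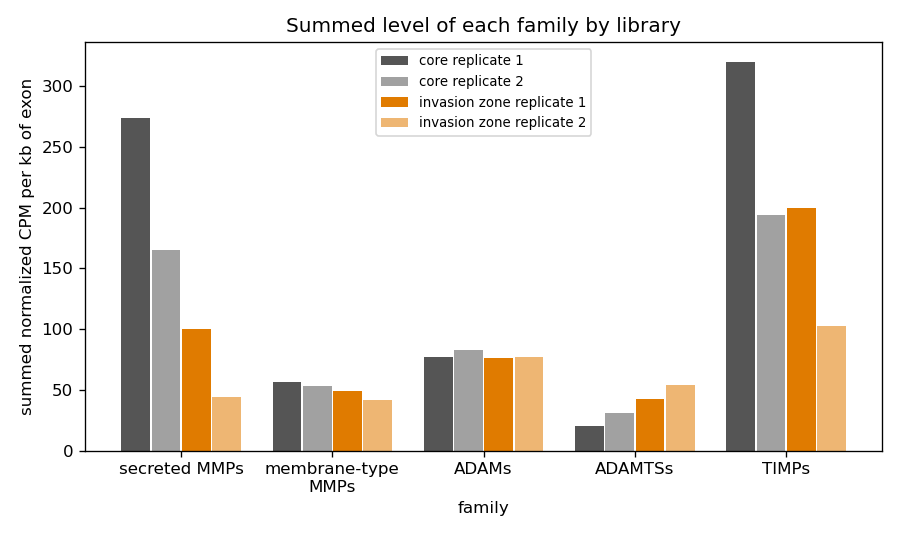
Summed normalized CPM per kb of exon for each family in the 4 libraries, as bars from 0, dark for replicate 1 and light for replicate 2, grey for the core and orange for the invasion zone. The secreted MMPs sum to 274 and 166 CPM per kb in the core and 99.9 and 44.4 in the invasion zone, the ADAMTSs are higher in both invasion zone libraries and the ADAMs lie between 76.4 and 82.5 CPM per kb in the 4 libraries.

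Of the inhibitors, TIMP1 (ENSG00000102265, X chromosome, 47582408 to 47586789) had 418 and 265 normalized CPM in the core and 253 and 137 in the invasion zone. The higher invasion zone library lay just under the lower core library. The mean was 341 ± 108 CPM (SD, n = 2) in the core against 195 ± 82.5 CPM in the invasion zone, with a log2 fold change of -0.81 (standard error 0.36). With the block it passed the adjusted p under the 2-fold minimum (edgeR log2 fold change -0.84, adjusted p = 0.000164), and it did not pass without (edgeR adjusted p = 0.241). It was -1.32 without invasion zone replicate 1 and -0.43 without core replicate 1 or invasion zone replicate 2.

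TIMP2, which inhibits MMPs and also links the MMP2 precursor to MMP14, varied more with the replicate than with the zone. It had 193 and 67.7 normalized CPM in the core and 154 and 50.6 in the invasion zone. Replicate 2 was lower by 1.51 on the log2 scale in the core and by 1.61 in the invasion zone. TIMP2 and ADAMTS13 were the 2 members with a replicate difference of at least 2-fold in the same direction in both zones. The zone difference of TIMP2 was -0.34 (standard error 0.67) without and -0.37 (standard error 0.08) with the block (edgeR adjusted p = 0.792 and 0.00755), and without core replicate 1 its log2 fold change turned to 0.61. TIMP3, which binds to the matrix and also inhibits ADAM17, was near the detection limit with 31, 12, 30 and 1 counts in core replicates 1 and 2 and invasion zone replicates 1 and 2, and it did not pass (edgeR adjusted p = 0.654 without and 0.396 with the block).

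Inhibitors were also set beside their targets within each library. The ratio of TIMP1 to the sum of the secreted MMPs per kb was 1.05 and 1.11 in the core and 1.75 and 2.13 in the invasion zone. For all TIMPs to all MMPs it was 0.968 and 0.889 in the core and 1.34 and 1.20 in the invasion zone. Both ratios were higher in both invasion zone libraries. Within each replicate, the TIMPs and the secreted MMPs were both lower in sum in the invasion zone. The TIMPs summed to 320 and 194 CPM per kb in the core against 200 and 103 in the invasion zone. The secreted MMPs summed to 274 and 166 against 99.9 and 44.4, of which MMP2 was 268 and 159 against 93.7 and 39.3. The ratio of TIMP2 to MMP14, unlike both ratios above, was 1.25 and 0.584 in the core and 1.10 and 0.484 in the invasion zone, and followed the replicate. Its log2 difference within replicates 1 and 2 was -0.18 and -0.27. The ratio of TIMP3 to ADAM17 was 0.0630, 0.0618 and 0.0688 in core replicates 1 and 2 and invasion zone replicate 1, and 0.00890 in invasion zone replicate 2, where TIMP3 had 1 count. No test was run on these ratios, which compare RNA and not protein and whose size depends on the exon length used.

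**Figure D5:**
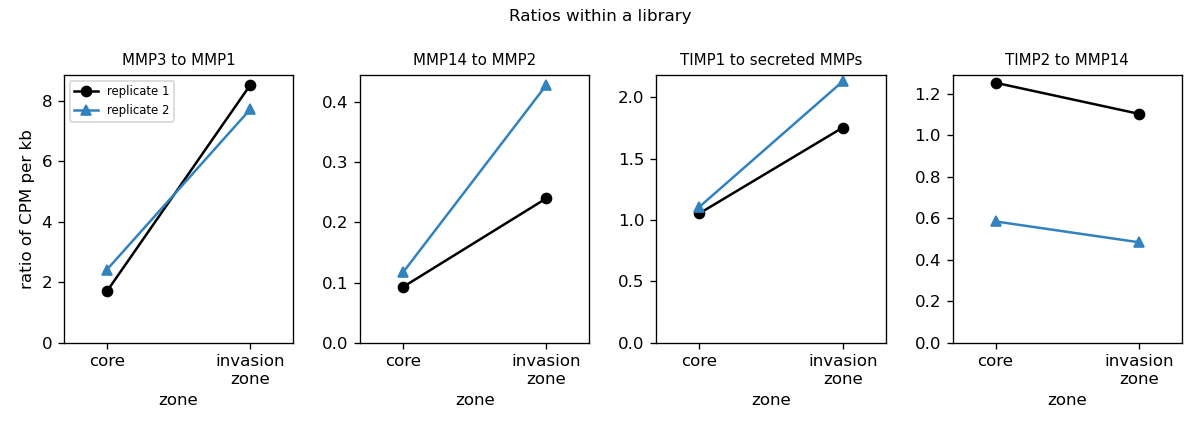
Ratios of normalized CPM per kb within a library in the core and the invasion zone, with a black line for replicate 1 and a blue line for replicate 2, each axis from 0. MMP3 to MMP1, MMP14 to MMP2 and TIMP1 to the secreted MMPs are higher in the invasion zone in both replicates, while TIMP2 to MMP14 differs mainly between the replicates, at 1.25 and 0.584 in the core.

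Other genes of the pathway were examined with lists chosen by function. Of 21 genes for activation, trafficking and clearance of metalloproteinases, 18 were tested, and 0 were called without the block and 1 higher and 3 lower with it (edgeR, background as above). LRP1, the receptor that takes up MMP2, MMP9 and TIMP complexes from the surroundings, had 699.6 and 451 normalized CPM in the core and 275 and 86.9 in the invasion zone (edgeR log2 fold change -1.67, standard error 0.56, adjusted p = 0.167 without and 0.000213 with the block). RHBDF2, which guides ADAM17 to the surface, had 93.2 and 83.9 CPM in the core against 45.3 and 25.8 CPM in the invasion zone (edgeR log2 fold change -1.31, standard error 0.28, adjusted p = 0.130 without and 0.00024 with the block). For both genes the zones did not overlap. SPOCK2 and TSPAN33, the other two called with the block, stayed at or below 2.01 CPM (edgeR log2 fold changes -1.32 and 1.86, adjusted p = 0.265 and 0.179 without and 0.0331 and 0.0357 with the block). BSG, which induces MMPs in neighbouring cells, passed with the block just under 2-fold (edgeR log2 fold change -0.96, adjusted p = 6.19e-05, against 0.135 without), with 2230 and 1627 CPM in the core against 1137 and 839 CPM in the invasion zone.

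The list of relatives outside the naming rule had 13 genes, of which 7 were tested. Of these, 0 were called without the block and 3 were called lower with it (background 0% without and 7.06% lower with the block). BMP1, the procollagen C-proteinase, had 88.5 and 68.6 normalized CPM in the core and 34.4 and 23.5 in the invasion zone (edgeR log2 fold change -1.43, standard error 0.24, adjusted p = 0.128 without and 5.9e-05 with the block). PAPLN (papilin) and ADAMTSL4, which resemble ADAMTSs but lack the protease domain, were the other two (edgeR log2 fold changes -1.44 and -1.18, adjusted p = 0.135 and 0.249 without and 0.00238 and 0.0174 with the block). All 12 AP-1 and ETS factors, the families known to bind MMP promoters, were tested, and 1 was called higher with the block (background 3.41% higher). FOSL1 had 223 and 326 CPM in the core against 501 and 619 CPM in the invasion zone (edgeR log2 fold change 1.03, standard error 0.23, adjusted p = 0.131 without and 7.89e-05 with the block). JUND went the other way under 2-fold, with 298 and 259 CPM in the core against 163 and 122 CPM in the invasion zone (edgeR log2 fold change -0.97, adjusted p = 9.28e-05 with and 0.128 without the block). Without the 2-fold minimum, the block test passed 3 of the 12 factors higher (FOSL1, JUN and ETS1) and 4 lower (JUND, JUNB, ETV1 and FOS). The background was 19.4% in each direction.

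Promoter windows from 250 bases before to 50 bases after the RefSeq gene start (GRCh38.p14) were matched by symbol for 39 of the 69 genes, and for 5 of the 9 called with the block. Of the called members, ADAM28, ADAMTS1, MMP1 and MMP2 had no entry. MMP3, MMP9, MMP12 and MMP13 were also without a window. The AP-1 motif TGANTCA, which reads the same on both strands, was found for 4 of the 39 genes (10.3%), namely MMP7, MMP10, MMP20 and ADAMTS12, against 9.37% of all 27305 genes with a window. A gene with several windows counted once, with a match in any of them. Of these 4 genes only ADAMTS12 was tested. By family, the motif was found for 3 of the 9 secreted MMPs with a window (33.3%) and 1 of the 12 ADAMTSs (8.33%). It was found for 0 of 12 ADAMs, 0 of 3 membrane-type MMPs and 0 of 3 TIMPs. Motifs chosen after the values were seen were the GC box GGGCGG and the core of the hypoxia response element ACGTG, both read on either strand. The GC box was found for 26 of the 39 genes (66.7%) against 48.3% of all genes, and ACGTG for 13 (33.3%) against 24.9%. The 120 bases before the start are shown for the 5 called members with an entry, as the sequences next to the starts of members that differed, with GC boxes of either strand in capitals.
MMP11 (chr22:23772729-23772848, plus strand): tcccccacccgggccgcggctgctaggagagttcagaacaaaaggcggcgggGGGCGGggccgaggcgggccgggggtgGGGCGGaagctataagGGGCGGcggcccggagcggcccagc
MMP15 (chr16:58025634-58025753, plus strand): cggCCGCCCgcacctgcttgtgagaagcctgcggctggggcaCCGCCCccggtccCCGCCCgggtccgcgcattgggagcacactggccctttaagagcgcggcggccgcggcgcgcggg
ADAM8 (chr10:133276869-133276988, minus strand): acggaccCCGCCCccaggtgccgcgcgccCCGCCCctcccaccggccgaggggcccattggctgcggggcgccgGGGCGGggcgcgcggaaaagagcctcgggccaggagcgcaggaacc
ADAMTS13 (chr9:133422247-133422366, plus strand): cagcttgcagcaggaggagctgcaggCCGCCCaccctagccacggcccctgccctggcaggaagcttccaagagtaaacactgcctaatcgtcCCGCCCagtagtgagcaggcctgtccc
ADAMTS6 (chr5:65481921-65482040, minus strand): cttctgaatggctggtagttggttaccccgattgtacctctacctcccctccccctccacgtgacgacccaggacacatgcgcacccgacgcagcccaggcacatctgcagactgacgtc
The stretches of MMP11, MMP15 and ADAM8 held 3 GC boxes each and that of ADAMTS13 held 2, while ADAMTS6 had none. The GC box was found for 16 of the 19 tested members with a window (84.2%) and 4 of the 5 called ones (80.0%). Its share among all genes that passed the count filter was not computed, so these shares have no like background. ADAM15, higher with the block under 2-fold, had 6 in its window. The ADAMTS6 window was the only one of the 5 with ACGTG, in 2 overlapping matches on opposite strands. A match describes the letters of the window and is no evidence that a factor binds there.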

How the data were processed

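Before deposit the authors discarded ribosomal reads (Bowtie) and reads of low quality, mapped the rest to hg38 (STAR) and counted unique alignments per gene (HTSeq-count), and the deposited values are these raw counts without normalization. The sources used here do not give versions, annotation release or strand setting, and the cDNA kit does not mark strand. The table had 56306 rows, of which 2 repeated rows without counts were left out. Genes were tested with edgeR 4.0.16 in R 4.3.3 (filterByExpr, which asks for about 10 counts at the median library size in 2 libraries and 15 in total, TMM scaling with factors from 0.985 to 1.009, glmQLFit and glmQLFTest) on all 4 libraries, and Benjamini-Hochberg adjusted p-values were read at 0.05 together with a 2-fold minimum. DESeq2 1.42.0, limma 3.58.1, other scalings and filters, a replicate block, thinning and each library left out were alternatives. Standard errors are the fold change divided by the square root of F.

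In the dissection a core is taken and then its corresponding invasion zone. Libraries with the same number were therefore treated as pairs in the block, although what the number marks is stated in no label. Their deviations from the mean of each zone correlated at 0.584 across the 15529 genes in log CPM and at 0.474 across the 33 tested members (2 pairs). A shared spheroid, batch or depth cannot be told apart in these correlations, and replicate 2 had fewer counts in each zone. The fit without the block stands first. The procedure was also run on simulated counts with the same spread for every gene, with and without a replicate shift taken from these data. Genes here differ in spread, so that run does not give the error rate in these libraries. GENCODE release 44 (GRCh38), with all 69 members and 98.1% of the table's identifiers, gave exon lengths and positions, and RefSeq gave promoter sequences. Every tested MMP and TIMP, ADAM10, ADAM17 and the ADAMs and ADAMTSs called in either fit are named with each library's value, other tested members by fold change or range, members not tested by symbol or count, and list genes where called. ADAM9, ADAM12, ADAM15, ADAM22, ADAMTS3, ADAMTS12, ADAMTS16, BSG and JUND were given more after their values were seen. The ratios of MMP3 to MMP1 and of MMP14 to MMP2 were not among the planned ratios. The members and lists were chosen with earlier results of these data known. Figures were drawn with matplotlib 3.10.9.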

Additional observations from a re-analysis of the deposited data

How the results depend on the processing

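The counts of members called higher and lower (0 and 0) and of all genes (0 and 0) did not change with RLE or upper-quartile scaling, a minimum of 10 counts in each library, limma voom, no fold change minimum or thinning to the smallest total. With no filter on low counts they became 2 and 5 members and 427 and 846 genes, and at an unadjusted p 2 and 6 members and 454 and 909 genes. DESeq2 called 1 and 4 members and 354 and 548 genes. With each library left out, where the lone library of a zone is assumed to vary like the other zone, members called higher ranged from 0 to 3 and lower from 0 to 7, and all genes from 13 to 632 higher and from 125 to 1137 lower. With the replicate block the counts were 2 and 7 members and 530 and 1097 genes, and in DESeq2 with that block 2 and 5 members and 427 and 731 genes, where ADAM28 has no adjusted p. Other block settings were chosen after seeing the data. With the block they were 2 and 7 members and 555 and 1093 genes under RLE scaling, 2 and 7 members and 520 and 1218 genes under upper-quartile scaling, 2 and 6 members and 575 and 1088 genes in limma voom, and 5 and 14 members and 3010 and 3009 genes without a fold change minimum. The 7 members called with no low-count filter and the 5 called by DESeq2 were all among the 9 called with the block. The cause of these differences was not tested.

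Log2 fold changes near 0 changed sign. ADAM9 turned to -0.0125 with upper-quartile scaling, -0.0113 with that scaling and the block and -0.0054 with a minimum of 10 counts in each library. ADAM32 turned to 0.0696 in limma voom. MMP9 turned to 0.13 in limma voom, 0.0241 with the replicate block, 0.0346 with the block and RLE scaling and 0.0766 with the block in limma voom. ADAMTS3 turned to 0.0309, 0.0395 and 0.0496 under these 3 block settings, and ADAMTS12 to 0.0158 with the block in limma voom. With each library left out, log2 fold changes ranged from -0.0017 to 0.4664 for ADAM19, -1.1179 to 0.6572 for ADAM32, -0.0341 to 0.0919 for ADAM9, -0.1287 to 0.0973 for ADAMTS12, -0.3717 to 0.0889 for MMP14, -0.1721 to 0.0621 for MMP16, -0.7408 to 0.2555 for MMP19, -0.6409 to 0.5552 for MMP9 and -1.3726 to 0.6116 for TIMP2. ADAMTS3 passed the count filter only without core replicate 2 (0.2007) or invasion zone replicate 2 (0.4248). Family medians ranged in the same way from -0.98 to -0.53 for secreted MMPs, -0.39 to -0.17 for membrane-type MMPs, -0.50 to -0.11 for ADAMs, 0.54 to 1.32 for ADAMTSs and -1.37 to -0.06 for TIMPs, and with fewer genes tested the ADAMTS median was 1.03 at a minimum of 10 counts in each library and 1.04 after thinning. None of the values with a changed sign passed the adjusted threshold. Few counts limit the rarer members, the shallowest library holding 11789243 counts in all.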
